A study of Mus musculus with 12 samples.

Results

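The genes described here encode the constitutive proteasome, its regulators and the factors that assemble it. They were chosen by symbol alone: of 18609 genes listed in 12 mouse tumour transcriptomes, 48 had a symbol made of Psma, Psmb, Psmc, Psmd, Psme, Psmf or Psmg and a number. The 3 immunoproteasome subunits Psmb8, Psmb9 and Psmb10 were left out, which gave 45 members. By role, 14 encode the core particle (20S), 17 the regulatory particle (19S) and 14 other proteins, namely assembly chaperones, activators, an inhibitor and tissue-specific core subunits. No value entered that rule, though the symbol pattern and the other gene lists were chosen with earlier results of these data known.

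The tumours were of MC38, a mouse colon cancer cell line, grown in wild-type C57BL/6 hosts or in C57BL/6 hosts with TLR4 knocked out. TLR4 is the receptor of innate immune cells for the lipopolysaccharide of Gram-negative bacteria such as Salmonella. Hosts received either phosphate-buffered saline (PBS) or Salmonella intravenously, and tumours were taken 1 day later. The 4 groups were wild-type PBS, wild-type Salmonella, knockout PBS and knockout Salmonella, each with 3 libraries, named F-1, M-1 or M-2 after the end of their titles. The tumour cells themselves are not stated to lack TLR4, and neither the promoter or allele of the knockout nor the age of the hosts is given in the sources used here. Whether the 3 libraries within a group are from separate animals is not stated, and a p-value here is set against the library-to-library spread, which can be technical.

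The proteasome degrades proteins tagged with ubiquitin. Its core particle is a barrel of stacked alpha and beta rings, in which the subunits encoded by Psmb6, Psmb7 and Psmb5 carry the proteolytic sites. The regulatory particle caps the barrel: its base holds a ring of ATPases that unfold and feed in substrates, and its lid removes ubiquitin. Under interferon, Psmb9, Psmb10 and Psmb8 replace the 3 proteolytic subunits, and the Psme1-Psme2 activator can take the place of the regulatory particle. When proteasome activity falls short, the transcription factor encoded by Nfe2l1 is known to raise subunit genes together through antioxidant response elements in their promoters.

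Promoters of 5 members are shown because they let that element be compared with the RNA values below: Psmb5, Psmb6, Psmc6 and Psmd9 hold its core, and Psmd8, the member with the largest fold change, does not. Each sequence runs 5′ to 3′ on the strand of the gene, from 250 bases before to 50 bases after its start, from RefSeq (GRCm38.p6). Capitals mark the core of the element, TGACNNNGC read on either strand.
Psmb5 (chr14:54617946-54618245, minus strand): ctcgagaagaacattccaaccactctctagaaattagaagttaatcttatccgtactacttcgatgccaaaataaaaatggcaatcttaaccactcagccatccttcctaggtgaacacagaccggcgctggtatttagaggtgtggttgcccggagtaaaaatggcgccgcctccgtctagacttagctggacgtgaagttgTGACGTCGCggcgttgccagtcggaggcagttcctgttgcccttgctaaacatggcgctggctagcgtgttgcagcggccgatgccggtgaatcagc
Psmb6 (chr11:70525107-70525406, plus strand): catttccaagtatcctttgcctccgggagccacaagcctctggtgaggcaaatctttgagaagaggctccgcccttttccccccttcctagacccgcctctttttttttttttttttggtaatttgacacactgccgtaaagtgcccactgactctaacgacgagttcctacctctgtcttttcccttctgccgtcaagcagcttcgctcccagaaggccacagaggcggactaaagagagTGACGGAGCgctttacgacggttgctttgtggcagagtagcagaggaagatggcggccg
Psmc6 (chr14:45329574-45329873, plus strand): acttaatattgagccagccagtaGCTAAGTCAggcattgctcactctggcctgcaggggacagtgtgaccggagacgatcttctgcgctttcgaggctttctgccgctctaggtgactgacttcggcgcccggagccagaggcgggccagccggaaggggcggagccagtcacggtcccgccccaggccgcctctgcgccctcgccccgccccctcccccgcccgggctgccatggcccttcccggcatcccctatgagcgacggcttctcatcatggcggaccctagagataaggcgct
Psmd9 (chr5:123227940-123228239, plus strand): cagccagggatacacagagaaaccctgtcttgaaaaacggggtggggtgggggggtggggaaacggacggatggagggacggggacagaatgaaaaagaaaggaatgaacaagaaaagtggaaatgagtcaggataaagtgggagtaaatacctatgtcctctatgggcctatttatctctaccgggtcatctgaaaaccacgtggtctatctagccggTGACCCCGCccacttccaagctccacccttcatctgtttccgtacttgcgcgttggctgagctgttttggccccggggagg
Psmd8 (chr7:29180624-29180923, minus strand): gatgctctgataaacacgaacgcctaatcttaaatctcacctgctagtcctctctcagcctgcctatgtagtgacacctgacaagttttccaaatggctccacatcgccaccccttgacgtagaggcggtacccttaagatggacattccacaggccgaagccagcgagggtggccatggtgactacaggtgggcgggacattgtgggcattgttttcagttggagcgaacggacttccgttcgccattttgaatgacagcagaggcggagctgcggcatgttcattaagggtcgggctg
The core began 47 bases before the start in Psmb5, 31 in Psmd9, 9 in Psmb6 and 227 in Psmc6. In all, 37 members matched the promoter table, with 40 windows, and 6 windows (15.0%) held the core, the other two being those of Psmd12 and Psme4. Of all 32851 promoter windows in the table, 12.4% held it. The CCAAT box was found in 32.5% of member windows and 37.4% of all windows, and GCATGCGC, a site of nuclear respiratory factor 1, in 7.5% (3 windows) and 2.7%. A match is a description of the letters in these windows, not a site shown to be bound.

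Libraries held 30514112 to 38769094 fragments, and 12164 genes passed the filter of at least 0.5 FPKM (fragments normalized to gene length and library total) in at least 3 libraries. Levels below are FPKM divided by a scaling factor for each library, called scaled FPKM. Within the wild-type Salmonella group that factor was 0.844 (F-1), 0.845 (M-1) and 1.032 (M-2), and elsewhere it was 1.001 to 1.049. Tlr4 was measured at 2.38 to 2.49 scaled FPKM under PBS and 2.5 to 4.48 under Salmonella in wild-type hosts, and at 1.54 to 3.03 and 1.72 to 1.91 in knockout hosts. The libraries labelled knockout therefore held Tlr4 RNA, and total Tlr4 is a weak check of their labels, since the deleted stretch is not stated. Summed scaled FPKM of 15 neutrophil markers was 30.6 to 37.9 in wild-type PBS, 3193 to 25270 in wild-type Salmonella, 22.5 to 40.9 in knockout PBS and 598 to 1122 in knockout Salmonella. Of 10 epithelial markers, 9 were listed and 1 passed the filter, with sums of 0.634 to 5.22, so the epithelial origin of the colon cancer line was not visible at RNA level. In such bulk tissue, more cells of a type and more RNA per cell cannot be told apart.

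Of the 45 members, 43 passed the filter. The exceptions were Psma8, which encodes the alpha subunit of the testis proteasome, with 1 to 8 fragments per library, and Psmb11, the beta subunit of the thymus proteasome, with 0 to 4. In wild-type PBS tumours the core subunits ranged from 64.2 scaled FPKM (Psma3) to 305.8 (Psmb4), median 148. Regulatory subunits were lower per gene length, from 40.2 (Psmd11) to 124 (Psmd4), median 90.7. The 19S chaperones lay between 20.1 (Psmd9) and 44.8 (Psmd5), the 20S chaperones between 26.0 (Psmg2) and 50.1 (Psmg4), and the inhibitor Psmf1 was the lowest tested member at 15.7. Psme1, at 224 scaled FPKM, stood among the core subunits in level.

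In wild-type hosts, 26 of 43 tested members rose 1 day after Salmonella and 0 fell (limma, two-sided, threshold of 0.05 on p adjusted after Benjamini-Hochberg across the 12164 tested genes). Voom on recovered fragments called 26 and 0, and 0 members were lower at an unadjusted p below 0.05. Among all 12164 tested genes, 19.2% rose and 16.2% fell. The log2 fold change, on the scale log2(scaled FPKM + 0.5), had a median of 0.42 over the tested members and 0.00 over all tested genes, and 42 of 43 members had a positive value. For 27 members, each wild-type Salmonella library lay above each wild-type PBS library, as it did for 23.4% of all tested genes, and 24 members met both criteria. The fold changes of the members that rose all stayed below 1 on the log2 scale. With FPKM as deposited, without scaling, the median of all genes moved to -0.19, that of the members to 0.21, and 20 members rose (12.3% of all genes).

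**Figure D1:**
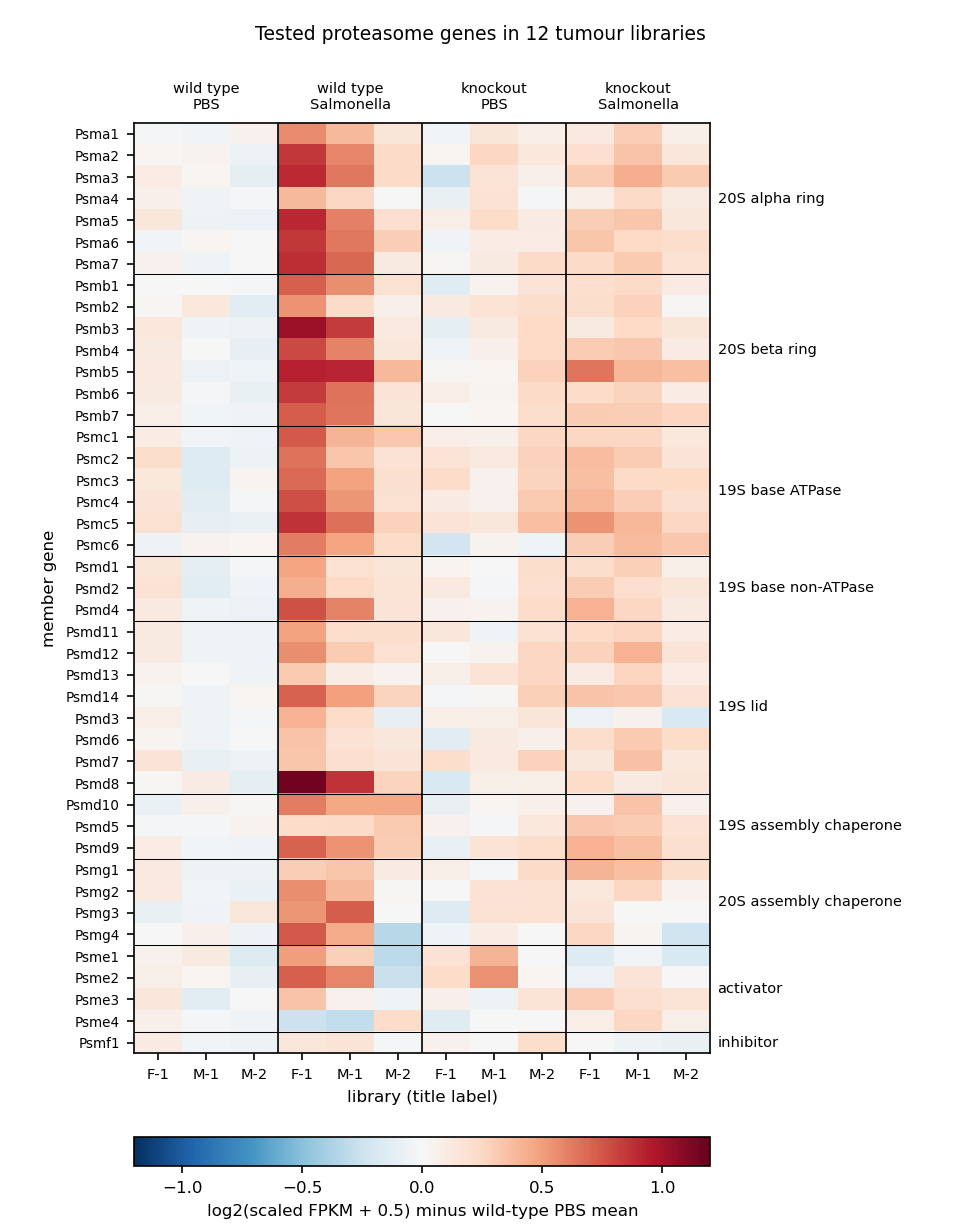
Level of the 43 tested members (rows, by role) in each of the 12 libraries (columns), as log2(scaled FPKM + 0.5) minus the mean of the 3 wild-type PBS libraries, with red for higher and blue for lower values. The F-1 and M-1 columns of the wild-type Salmonella group are the darkest, and the M-2 column of that group is close in shade to the knockout Salmonella libraries.

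The core particle had the larger share of members that rose, 12 of 14 with a median log2 fold change of 0.55. In the alpha ring, which gates entry to the barrel, 6 of 7 rose, with Psma4 at 0.21 (adjusted p = 0.155) as the exception. In the beta ring 6 of 7 rose, with Psmb2 at 0.28 (adjusted p = 0.0992) as the exception. The fold changes of the 12 that rose ran from 0.37 (Psma1) to 0.75 (Psmb5).

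Psmb5, which encodes the chymotrypsin-like subunit and is the target of the drug bortezomib, was measured at 209.3, 183 and 186 scaled FPKM in wild-type PBS F-1, M-1 and M-2. After Salmonella it was at 368, 363 and 253, a log2 fold change of 0.75 (SE 0.15, limma adjusted p = 0.00495). All Salmonella libraries exceeded the PBS libraries, F-1 and M-1 by far more than M-2. The gene lies at chr14:54614119-54618022 on the minus strand (GRCm38), and a microRNA gene, Mir686, overlaps its exons on the same strand.

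Psmb6, the caspase-like subunit, stood at 157, 143 and 136 under PBS and at 259, 228 and 161 under Salmonella (log2 fold change 0.55, SE 0.15, limma adjusted p = 0.0174). The groups did not overlap, but M-2 lay only just above the highest PBS library. Psmb7, the trypsin-like subunit, went from 220.3, 204 and 203 to 347, 325 and 231 (0.51, SE 0.14, limma adjusted p = 0.0172). Again F-1 and M-1 were far above PBS and M-2 near it. Psmb7 shares exonic bases with Nek6 on the opposite strand, and without a stated strand setting their fragments cannot be told apart.

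The largest rise of a noncatalytic beta subunit was that of Psmb3, from 259.5, 229.6 and 226 to 490, 425 and 258 scaled FPKM (log2 fold change 0.66, SE 0.20, limma adjusted p = 0.0231). Its M-2 library fell within the PBS range, so the groups overlapped. The alpha subunit gene Psma6 rose from 121, 126 and 124 to 222, 191 and 152 (0.59, SE 0.12, limma adjusted p = 0.00518), and its PBS libraries lay within a narrow band below all 3 Salmonella libraries. Psma3, the lowest core subunit in level, rose from 68.1, 65.0 and 59.5 to 119.7, 99.7 and 75.2 (0.59, SE 0.16, limma adjusted p = 0.0148), also without overlap.

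Of the 17 regulatory subunits 11 rose, with a median of 0.38. The base ATPases were called as a full set: all of Psmc1 to Psmc6 rose, 6 of 6, by 0.38 (Psmc2) to 0.60 (Psmc5). With the length trend removed 3 of the 6 rose (16.5% of all genes), and with FPKM as deposited 4 (12.3%). Psmc5 went from 102.6, 84.4 and 85.3 to 166, 143 and 109 scaled FPKM (log2 fold change 0.60, SE 0.15, limma adjusted p = 0.0109). Even its lowest Salmonella library lay above the PBS libraries. Of the non-ATPase base subunits, Psmd4, a ubiquitin receptor, rose by 0.51 (limma adjusted p = 0.0208). The scaffold subunits Psmd1 and Psmd2 had values of 0.27 and 0.28 (adjusted p = 0.0831 and 0.0608) and did not pass.

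The lid was split, with 4 of 8 members called and a median of 0.27. Psmd8, a lid subunit, had the largest fold change of all members: 91.6, 97.3 and 84.4 scaled FPKM under PBS against 203, 167 and 109.5 under Salmonella (log2 fold change 0.76, SE 0.18, limma adjusted p = 0.0087). The gene lies at chr7:29174188-29180701 on the minus strand (GRCm38). Its Salmonella libraries lay above the PBS libraries and differed among themselves more than the PBS libraries did. Psmd14, the deubiquitinase of the lid, rose by 0.49 (limma adjusted p = 0.0103), Psmd12 by 0.35 (0.0326) and Psmd11 by 0.30 (0.0339). Psmd3, Psmd6, Psmd7 and Psmd13 lay between 0.15 and 0.23 and did not pass. Of the 6 members whose promoter held the element core shown above, 5 rose (Psmb5, Psmb6, Psmc6, Psmd9 and Psmd12) and Psme4 did not pass, beside 18 of the 30 tested members whose window lacked it. With the length trend removed these counts were 3 (Psmb5, Psmc6 and Psmd9) and 10, given as a description with no test.

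Among the assembly factors, all 3 member chaperones of the 19S base passed: Psmd9 by 0.52 (limma adjusted p = 0.00704), Psmd5 by 0.25 (0.0219) and Psmd10, also known as gankyrin, by 0.51. Psmd10 had the smallest p of all members (log2 fold change SE 0.09, limma adjusted p = 0.00317), with 34.3, 37.7 and 36.7 scaled FPKM under PBS and 55.5, 50.3 and 50.1 under Salmonella. Here, unlike in most members, M-2 lay close to the other Salmonella libraries. The 20S chaperones Psmg1 to Psmg4 had positive values of 0.25 to 0.42, but 0 of 4 passed in limma or voom, while 3 had an unadjusted p below 0.05. The values of both kinds of chaperone overlapped, and their difference was not tested. Without wild-type Salmonella M-2, Psmg1 to Psmg4 passed too, at 0.32 to 0.63 (limma adjusted p = 0.00129 to 0.0167). That library was the lowest of its group in 41 of 43 members, and 27.5% of all genes rose without it. With the length trend removed 0 of 4 passed, with a median of -0.04 and values from -0.28 (Psmg4) to 0.02 (Psmg3). Of the 19S chaperones, Psmd9 and Psmd10 passed in that setting and Psmd5 did not (0.14, limma adjusted p = 0.167). Psmd5 also did not pass with FPKM as deposited (0.05, limma adjusted p = 0.716).

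The alternative activators and the inhibitor did not pass either, 0 of 5 in limma or voom, with 0 at an unadjusted p below 0.05. Psme1, a subunit of the interferon-induced activator, was at 231.5, 242 and 199.7 scaled FPKM under PBS and 317, 272 and 179.9 under Salmonella (log2 fold change 0.16, SE 0.18, limma adjusted p = 0.515), and this value turned to -0.05 with FPKM as deposited. F-1 and M-1 were above the PBS libraries and M-2 below them. Its partner Psme2 was at 181, 176 and 161 under PBS and 284, 259.8 and 143.5 under Salmonella (0.35, SE 0.22, limma adjusted p = 0.23), with the same order of libraries. Psme2 is uncertain in level, since 76.5% of the 31-base stretches of the Psme2b transcript also occur in Psme2 and the counting may divide fragments between them. Psme3, a nuclear activator, stood at 0.12, and Psmf1 at 0.09 (at -0.09 and -0.11 with FPKM as deposited). Psme4, which encodes the large activator PA200, was the only tested member with a negative value, -0.11 (limma adjusted p = 0.485).

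**Figure D2:**
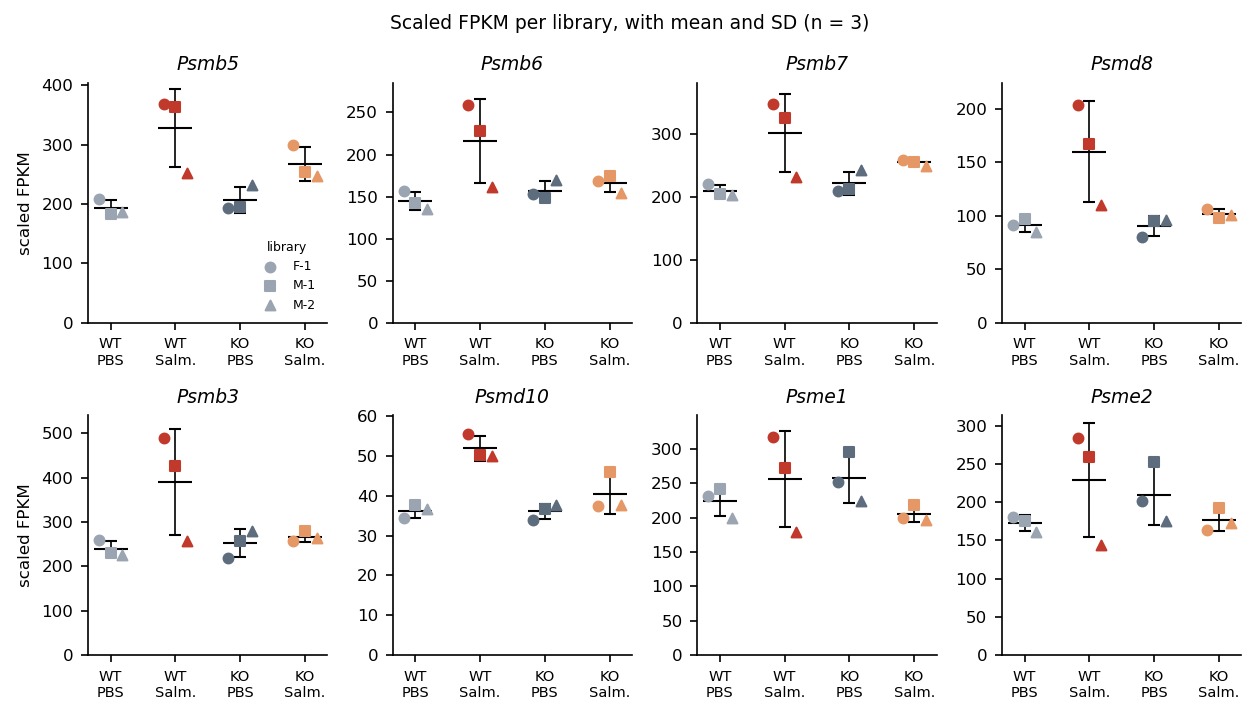
Scaled FPKM of 8 members in each library (circle F-1, square M-1, triangle M-2), with the group mean (horizontal bar) and SD (n = 3), for wild-type (WT) and knockout (KO) hosts given PBS or Salmonella (Salm.). In wild-type Salmonella tumours M-2 lies below F-1 and M-1 in each panel, and in Psme1 and Psme2 it lies below the PBS libraries too.

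Library M-2 of the wild-type Salmonella group stood apart from its group. It was the lowest of the 3 in 41 of 43 members, whereas F-1 was the highest of all 12 libraries in 37. Relative to the wild-type PBS mean, the mean log2 difference of the core subunits was 0.78 in F-1, 0.59 in M-1 and 0.17 in M-2, and that of the regulatory subunits 0.61, 0.38 and 0.18. The core exceeded the regulatory subunits by 0.18 and 0.21 in F-1 and M-1 and by -0.01 in M-2. The sums of 8 of 9 marker lists were also lowest in M-2, the exception being macrophage markers, at 779, 505 and 711 scaled FPKM in F-1, M-1 and M-2. Neutrophil markers, of which 15 of 15 rose, summed to 4798, 25270 and 3193. Erythroid and platelet markers, of which 6 of 7 tested rose, summed to 573, 571 and 277 (35.3 to 68.5 in wild-type PBS). Skeletal muscle markers, 9 of 11, summed to 143, 134 and 58.3 (6.21 to 11.8), and endothelial markers, 9 of 10, to 138, 167 and 110 (43.9 to 60.8). In proliferation markers, of which 1 of 10 rose and 3 fell, the sums were 1016, 870 and 856 (835 to 918). Those of 12 interferon-gamma response genes, of which 0 rose and 2 fell, were 1191, 914 and 622 (980 to 1163), so both lists followed the order of the proteasome means, F-1, M-1, M-2. T and NK cell markers had that order too, and epithelial markers summed to 3.16, 5.22 and 1.61. The part of these lists in the proteasome values was not tested. Without M-2, 39 members rose and 1 fell (27.5% of all genes rose): all 14 core, 16 of 17 regulatory and 9 of 12 other tested members rose, while Psme4 fell by 0.27. Without another library fewer rose, with 9 once Salmonella F-1 was left out, 12 for Salmonella M-1, 10 for PBS M-2, 11 for PBS M-1 and 25 for PBS F-1. The share of all genes that rose in these fits is not given here, so the lower counts are not read as a result about the members. When only the 6 wild-type libraries were fitted, 8 rose (11.1% of all genes).

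**Figure D3:**
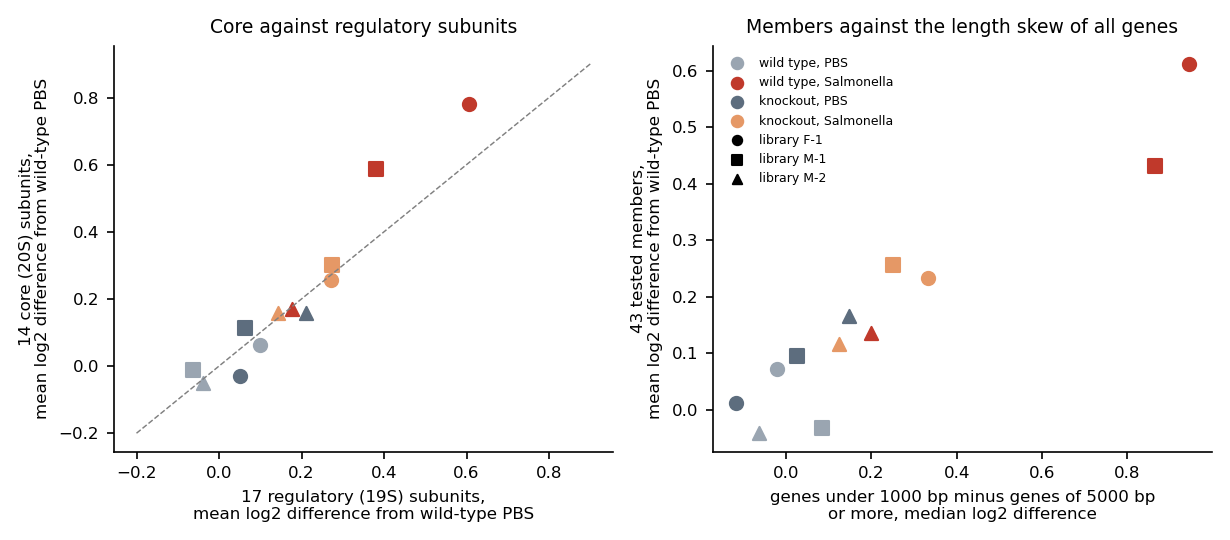
Left, mean log2 difference from wild-type PBS of the 14 core subunits against that of the 17 regulatory subunits, 1 point per library, with the line of equality dashed. Right, mean log2 difference of the 43 tested members against the median log2 difference of all tested genes under 1000 bp minus that of genes of 5000 bp or more. The F-1 and M-1 libraries of the wild-type Salmonella group lie at the upper right of both panels, with core values of 0.78 and 0.59 and length differences of 0.945 and 0.865.

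The size of the change in wild-type hosts went with gene length, and proteasome genes are short. The tested members had a median length of 1436 bp against 3367 bp for all tested genes, core subunits 731 to 1956 bp (median 1080) and regulatory subunits 1277 to 3325 bp (median 1600). Among all tested genes under 1000 bp, 50.2% rose in wild-type hosts (median log2 fold change 0.50), and 4 of the 9 members of that length did. From 1000 to 1500 bp 36.5% of all genes rose against 10 of 14 members, and from 1500 to 2000 bp 30.2% against 9 of 11 members. From 2000 to 3000 bp 19.9% rose against 3 of 4 members, from 3000 to 5000 bp 14.4% against 0 of 4, and at 5000 bp or more 8.1% against 0 of 1. The difference between short and long genes was 0.945 (log2) in F-1, 0.865 in M-1 and 0.20 in M-2 of the wild-type Salmonella group, 0.33, 0.25 and 0.13 in knockout Salmonella, and -0.12 to 0.15 in the PBS libraries. It thus moved with the same libraries as the proteasome genes.

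With the trend on gene length removed in each library, an alternative chosen after seeing the data, 13 of 43 members rose (16.5% of all genes), with a median of 0.20. Of the 26 members that rose before, 12 were still called: Psma3, Psma6, Psma7, Psmb5, Psmc1, Psmc5, Psmc6, Psmd8, Psmd9, Psmd10, Psmd11 and Psmd14. Psmd2 was added. The order of the particles also turned: 4 of 14 core subunits rose with a median of 0.20, and 7 of 17 regulatory subunits with a median of 0.27. Psmd8 kept the largest value, 0.56 (limma adjusted p = 0.0112), Psmd9 was at 0.47 (0.00732) and Psmb5 at 0.35 (0.0122). Psmb3 dropped to 0.20 (0.157), Psmb6 to 0.24 (0.0636) and Psmb7 to 0.18 (0.0831), and Psme1 turned to -0.20 (0.259). The cause of the length trend was not tested.

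**Figure D4:**
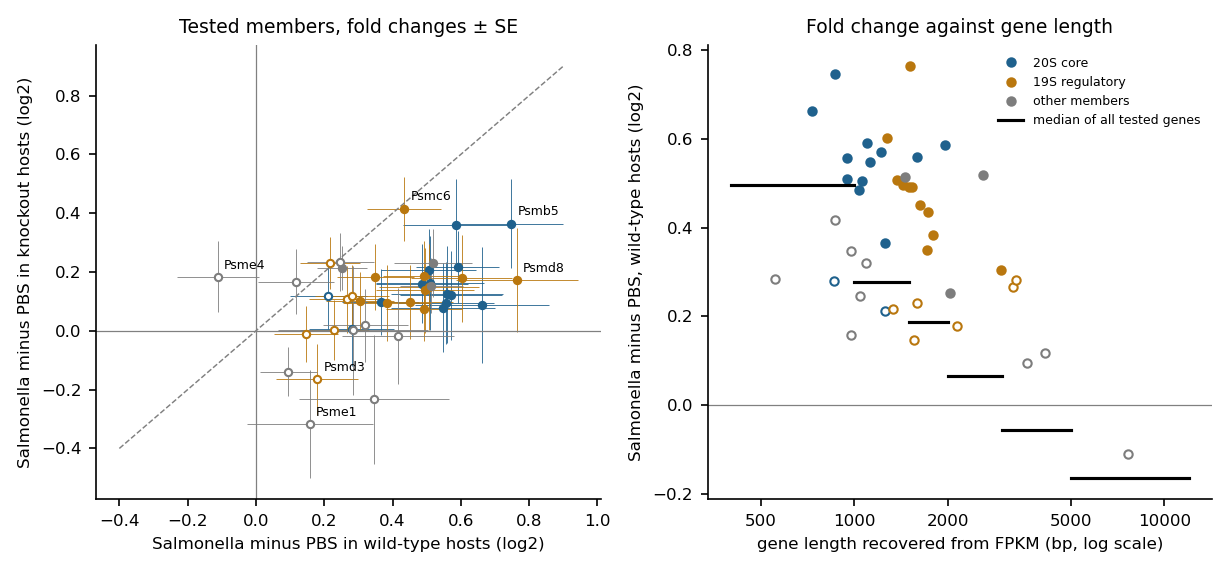
Left, log2 fold change after Salmonella of each tested member in knockout hosts (vertical axis) against wild-type hosts (horizontal axis), with SE bars and the line of equality dashed. Right, the wild-type fold change against gene length on a log axis, with black bars for the median of all tested genes in each length class. Blue, ochre and grey mark core, regulatory and other members, filled where the wild-type change passed, and most points lie below the line on the left and, from 1000 to 3000 bp, above the bar of their class on the right.

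In knockout hosts 0 of 43 members passed in either direction in limma, with 6 at an unadjusted p below 0.05 and 0 called by voom on recovered fragments. Of all 12164 genes 0.427% were called higher and 0.329% lower, and 2330 had an unadjusted p below 0.05. Of the members 37 had a positive value and the median was 0.12, with 0.12 for both the core and the regulatory subunits. Psmc6 came nearest, from 78.0, 94.4 and 88.7 scaled FPKM to 113, 119 and 115 (log2 fold change 0.42, SE 0.11, limma adjusted p = 0.0985), beside 0.43 in wild-type hosts. Its knockout groups did not overlap, and with the length trend removed it passed at 0.36 (adjusted p = 0.049). Psmb5 stood at 194, 195 and 233 under PBS and 299.6, 254 and 247.5 under Salmonella (0.36, SE 0.15, limma adjusted p = 0.217), again without overlap. Psme1 and Psme2 had negative values of -0.32 and -0.23, which did not pass.

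Between knockout and wild-type hosts given PBS no member was called: 0 of 43 passed in limma and in voom, 0 had an unadjusted p below 0.05, and the median difference was 0.10. No gene of the 12164 passed in that comparison (0%), and 176 had an unadjusted p below 0.05. Under Salmonella, 1 member was lower in knockout hosts and 0 higher in limma (0 higher also at an unadjusted p below 0.05 and in voom), where 5.82% of all genes were lower and 2.92% higher. The member was Psmd10, at 37.5, 46.0 and 37.7 scaled FPKM in knockout F-1, M-1 and M-2 against 55.5, 50.3 and 50.1 in wild-type hosts (log2 difference -0.36, SE 0.09, limma adjusted p = 0.0368). The groups did not overlap, but the call was lost under several alternatives, voom among them (adjusted p = 0.0541). Psmd8 had the larger difference, 106, 97.8 and 101 against 203, 167 and 109.5 (-0.61, SE 0.18, limma adjusted p = 0.0548). It passed with FPKM as deposited (adjusted p = 0.049) and with the length trend removed (adjusted p = 0.0449). The median over the members was -0.21, and -0.03 with FPKM as deposited, where that of all genes was 0.16.

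Whether the response to Salmonella itself differed between hosts was tested as an interaction, the knockout change minus the wild-type change. In that test 0 of 43 members passed in limma, 5 had an unadjusted p below 0.05 and voom called 0, beside 0.0247% of all genes. The median was -0.30 over the members, -0.36 for the core and -0.29 for the regulatory subunits, and 40 members had a negative value. The largest were Psmd8 (-0.59, SE 0.25, limma adjusted p = 0.326), Psme2 (-0.58, SE 0.31, adjusted p = 0.391) and Psmb3 (-0.58, SE 0.28, adjusted p = 0.359). Thus a rise that passed in wild-type and not in knockout hosts was not shown to differ between them in the full set of libraries. Without wild-type Salmonella M-2, 22 members were lower in this test and 1, Psme4, higher (12.1% of all genes were lower), and 10 of the 14 core and 7 of the 17 regulatory subunits were among the 22. Under Salmonella alone, 27 members were then lower in knockout hosts (21.2% of all genes) and Psme4 higher. The call thus depended on this 1 library.

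The immunoproteasome genes Psmb8 and Psmb9 were lower after Salmonella, near the threshold with scaled FPKM. In wild-type hosts Psmb8 fell by 0.57 (limma adjusted p = 0.0473) and Psmb9 by 0.68 (0.0339), whereas Psmb10 was at 0.47 (adjusted p = 0.12) and did not pass. The Psmb8 call was lost without any 1 of the 6 wild-type libraries (limma adjusted p = 0.0537 to 0.121), with no filter (0.0758) and with a term for the title letter (0.054). The Psmb9 call was lost without any 1 of the PBS libraries or Salmonella M-2 (limma adjusted p = 0.053 to 0.101), with no filter (0.0581) and with only the groups compared (0.0562). Without the scaling factors both calls held, at -0.77 (limma adjusted p = 0.00777) for Psmb8 and -0.88 (0.00536) for Psmb9. That setting lowered the typical gene too, to -0.19. With the length trend removed both calls held, at -0.85 (limma adjusted p = 0.0107) and -0.99 (0.00577). In knockout hosts the values were -0.65 and -0.69 and did not pass (limma adjusted p = 0.13 and 0.137). The ratio of Psmb8 to Psmb5 was 1.39, 1.63 and 1.43 in wild-type PBS and 0.61, 0.546 and 0.629 in wild-type Salmonella libraries, and 1.69, 2.26 and 0.959 against 0.674, 0.824 and 0.798 in knockout hosts. Salmonella and PBS libraries did not overlap in either host. The exact two-sided permutation test gave p = 0.1 in each host, the smallest that 3 against 3 libraries allow, and 0.15 adjusted over the 6 ratios tested. Psmb9 to Psmb6 behaved alike, from 1.10 to 1.46 down to 0.505 to 0.581 in wild-type hosts (exact permutation p = 0.1). There Psmb10 to Psmb7 was at 0.67 to 0.845 under PBS and 0.626 to 0.837 under Salmonella (exact permutation p = 0.9). In knockout hosts Psmb10 to Psmb7 was at 0.691 to 1.1 under PBS and 0.623 to 0.768 under Salmonella. That was a log2 change of -0.38 (exact permutation p = 0.3). Summed levels of 12 interferon-gamma response genes were 980 to 1163 in wild-type PBS and 622 to 1191 in wild-type Salmonella libraries, and their part in these ratios was not tested.

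Across the 12 libraries the members went up and down together. The correlation of a member with the mean of the others had a median of 0.91, and 29 of 43 exceeded 0.8, as a description of 12 libraries that share depth, scaling and the length trend above. Psmb4, the highest core subunit in level, followed the mean most closely (0.99). Psme1 (0.45), Psmf1 (0.49) and Psmd5 (0.59) followed it loosely, and Psme4, at 7649 bp the longest member, ran against it (-0.44). With the group means removed, the values were 0.75 for Psme1, 0.70 for Psmf1, -0.16 for Psmd5 and -0.58 for Psme4. No value of other genes is set beside these correlations.

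Other genes of the ubiquitin-proteasome pathway were read from a list of 31 tested genes. In wild-type hosts 8 rose and 3 fell, beside 19.2% and 16.2% of all tested genes, with a median of 0.13. With FPKM as deposited 5 rose (12.3% of all genes) and 7 fell, where the median of all tested genes was -0.19. With the length trend removed 4 rose (16.5% of all genes) and 1 fell. The share of all genes that fell is not given here for either setting. These counts of falls are therefore not read as a result about the pathway. The 3 that fell were Fbxo7 (log2 fold change -0.33, limma adjusted p = 0.0457), Ubqln4 (-0.25, 0.0346) and Ngly1 (-0.24, 0.0479). Uchl5 and Adrm1 encode a deubiquitinase and the ubiquitin receptor that recruits it to the 19S base, and rose by 0.48 (limma adjusted p = 0.00495) and 0.57 (0.0141). Rps27a and Ubb, which encode ubiquitin, rose by 0.75 (0.0253) and 0.53 (0.0337), and Ufd1, a cofactor of the unfoldase Vcp, by 0.42 (0.0131). Rps27a also encodes a ribosomal protein, fused to ubiquitin. Adrm1, Rps27a and Ubb did not pass with the length trend removed (limma adjusted p = 0.0543 to 0.0689). Nfe2l1 itself was at 61.1 ± 3.47 scaled FPKM under PBS and 55.9 ± 1.59 under Salmonella (SD, n = 3; log2 fold change -0.13, limma adjusted p = 0.325). Of the 31, 0 passed in limma or voom in knockout hosts, with 2 at an unadjusted p below 0.05.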

How the data were processed

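RNA-seq values of 12 MC38 tumour libraries in 4 groups of 3 were analysed. The authors deposited 1 table of FPKM per library; the unit was inferred from the values. Per the submitters' processing notes fastp, HISAT2 and HTSeq were used, with no version or role, and TRIzol served for RNA extraction, per the labels' protocols. Genome build, annotation and strand setting, not given in the sources used here, were treated as unknown. Whole fragments were recovered for 99.99% of genes within 0.01 fragments, which gave gene lengths and 30514112 to 38769094 fragments per library. At this depth 3 fragments in a 1 kb gene, the limit that a count of 0 allows, equalled 0.0774 to 0.0983 FPKM, for counting error only.

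FPKM was divided by trimmed-mean scaling factors (30% of ratios and 5% of levels trimmed), and log2(value + 0.5) was fitted with limma 3.58.1 in R 4.3.3 (empirical Bayes, intensity trend, robust) with a mean for each of the 4 groups (8 residual degrees of freedom over 12 libraries). The 12164 genes tested reached 0.5 FPKM in 3 or more libraries, and Benjamini-Hochberg adjustment ran across them. The pseudocount understates changes of low genes. The fit was tested on simulated data drawn 6 times, where false calls were in some draws more frequent than the threshold of 0.05 promises. The simulated data had the same spread setting for all genes, no length trend and no library standing apart. False calls under such features were therefore not measured.

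The symbol pattern that set the members, and the other gene lists, were chosen with earlier results of these data known. Values in every library are given for Psmb5, Psmb6, Psmb7, Psme1 and Psme2 and, for each comparison, for up to 6 members of largest fold change in each direction among those that passed. Up to 6 pathway genes that passed in wild-type hosts are named, by smallest p. Psmd10 and Psmd8 in the other comparisons, Psmc6, Nfe2l1, the pathway genes that fell and other single members were named after their values were seen. Positions are from GENCODE M21 (GRCm38), and promoters from RefSeq (GRCm38.p6); either may differ from the authors' build. Of the members, 9 overlap exons of a gene on the opposite strand. Alternatives were other scaling, filters, pseudocounts, voom, a replicate block, a title-letter term, only the groups compared, each library left out, and length and GC trends removed.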

Additional observations from a re-analysis of the deposited data

How the results depend on the processing

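Of 200 recomputed counts of members called, 175 stayed within 1.5 times of the reported count. Most of the reported counts were 0 and mostly stayed at 0, so these 175 say little about the count of 26 in wild-type hosts. That count ranged from 8 to 39. Of 418 recomputed values for 22 single-gene results, 325 kept direction and side of the threshold, 78 lost and 8 gained the call, and 7 changed sign. For members higher in wild-type hosts (26), the count was 8 with only the groups compared (11.1% of all genes). It was 13 with the length trend removed (16.5%) and 16 with length and GC trends removed. With the length trend removed and a replicate block it was 17, and 1 member, Psmg4, was lower. The share of all genes is not given here for the counts of 16 and 17. In knockout hosts Psmc6 was the 1 member higher with the length trend removed. Between hosts under Salmonella, 1 member, Psmg1, was higher with the length trend removed and also with length and GC trends removed, and 0 were lower with voom, with only the groups compared and with the length trend removed and the block. Leaving out each library in turn gave 9 to 39 members higher and 0 to 1 lower in wild-type hosts, 0 to 27 lower and 0 to 1 higher between hosts under Salmonella, and 0 to 22 lower and 0 to 1 higher for the interaction. Psme1 in wild-type hosts turned to -0.048 with FPKM as deposited, -0.199 with the length trend removed, with or without the block, -0.139 with length and GC trends removed and -0.02 without Salmonella F-1 (leaving out 1 library gave -0.02 to 0.398), and Psme2 to -0.01 with the length trend removed, with or without the block. The length and GC alternatives were chosen after seeing the data, and the causes were not tested.

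With the replicate label as a block, 27 members rose in wild-type hosts, and no other count of members changed. Of 18 pairs of libraries with the same label, 7 had deviations correlated above 0.1 (range -0.332 to 0.397), so the labels share a name and are not shown to pair samples. With 3 libraries per group and 1 that stands apart, counts of members called moved with single libraries, as the ranges above show. Among these fits, the share of all genes is given only without wild-type Salmonella M-2. The ranges are therefore not read as a result about the members. The 43 tested members held 857 to 19276 fragments per library, whereas Psma8 and Psmb11 were too low to test.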
